A study of Sus scrofa with 6 samples.

Results

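The interior of chromosome 1 of the pig was taken as every methylated-DNA peak whose midpoint lay above position 20000000 and at or below position 295200000. The zones within 20 Mb of either end of the chromosome were thereby left out, and 275.2 Mb remained. Peaks of the 6 libraries that shared at least 1 bp were merged into regions, which gave 25825 regions in the interior of chromosome 1. These are 29.2% of the 88582 merged regions on chromosomes 1, 10, 11, 12 and 13, the 5 chromosomes that every deposited list covers to the end. Membership is set by position, and no measured value enters the rule, although the zone itself was chosen with earlier results of these data known.

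The study profiled longissimus dorsi (a long back muscle) of female pigs from 2 breeds, purebred Yorkshire and purebred Wannanhua, with 3 libraries each. Sex and tissue are shared by all 6 libraries, no treatment is named, and the age of the animals is not given in the sources used here. No label states that the numbered libraries of a breed are separate animals. The p-values therefore reflect the scatter of these libraries alone, and that scatter may be technical. The DNA came from whole muscle, so a change within 1 cell type and a change in the mix of cells cannot be told apart.

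DNA methylation in mammals is carried mainly by cytosines that are followed by guanine (CpG sites). In methylated DNA immunoprecipitation followed by sequencing (MeDIP-seq), sheared DNA is pulled down with an antibody against methylated cytosine, and a peak marks a stretch where tags pile up above their surroundings. The yield of a stretch depends on the number of methylated cytosines it holds as well as on the level at each of them, so DNA without CpG sites gives little signal whether or not its neighbours are methylated. Most CpG sites of a mammalian genome are methylated in a tissue such as muscle, and the exceptions are mainly short CpG-rich stretches at gene starts and active enhancers. A peak list of this kind is therefore a map of methylated, relatively CpG-rich DNA, and it does not give the methylation level of single sites.

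Depth differed between libraries. After duplicate tags had been removed, 6728444 to 17108367 tags per library remained, with Yorkshire 3 and Wannanhua 1 the shallowest. Fragments as estimated by the caller measured 97 to 169 bp for Yorkshire against 179 to 202 bp for Wannanhua, so fragment length did not overlap between the breeds. Breed differences below stand beside this difference in fragment length, and its part in them was not tested. A fit with fragment length as a covariate is given below, but without overlap it can hardly separate fragment length from breed.

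Every library had peaks throughout the interior, and their numbers overlapped between the breeds. Yorkshire 1, 2 and 3 had 17064, 18836 and 14293 peaks there, and Wannanhua 1, 2 and 3 had 9441, 17116 and 16162. Per Mb this was 60.8 ± 8.32 peaks in Yorkshire and 51.7 ± 15.2 in Wannanhua (mean ± SD, n = 3 each). The breeds overlapped, with Wannanhua 1 far below the other 5 libraries, and the difference was smaller than the spread (two-sided exact permutation test, p = 0.6, where 0.1 is the smallest p that 3 against 3 can give). Without Wannanhua 1 the difference of -9.05 peaks per Mb shrank to -0.33. With the same number of top-scoring peaks taken from every library, the difference was -3.23 peaks per Mb and the breeds did not overlap (exact permutation p = 0.1). The length under peaks was 7.70, 9.88 and 4.46 Mb in the Yorkshire libraries and 4.60, 10.1 and 9.97 Mb in the Wannanhua libraries (exact permutation p = 0.5). Its direction depended on single libraries, since Wannanhua minus Yorkshire was 0.889 Mb with all 6 and -0.554 Mb without Yorkshire 3.

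Peaks were wider in most Wannanhua libraries, but the breeds overlapped. Median widths in Yorkshire 1, 2 and 3 were 426, 487 and 299 bp, and those in Wannanhua 1, 2 and 3 were 461, 546 and 573 bp. Wannanhua 1 lay below Yorkshire 2, and the exact permutation p was 0.2. The peak densities of the 5 Mb windows varied by 25.4 to 28.3% of their mean in Yorkshire and by 27.0 to 29.7% in Wannanhua (coefficient of variation, exact permutation p = 0.2). Adjusted by Benjamini-Hochberg over 6 such library measures, the lowest of the exact p-values was 0.4.

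**Figure D1:**
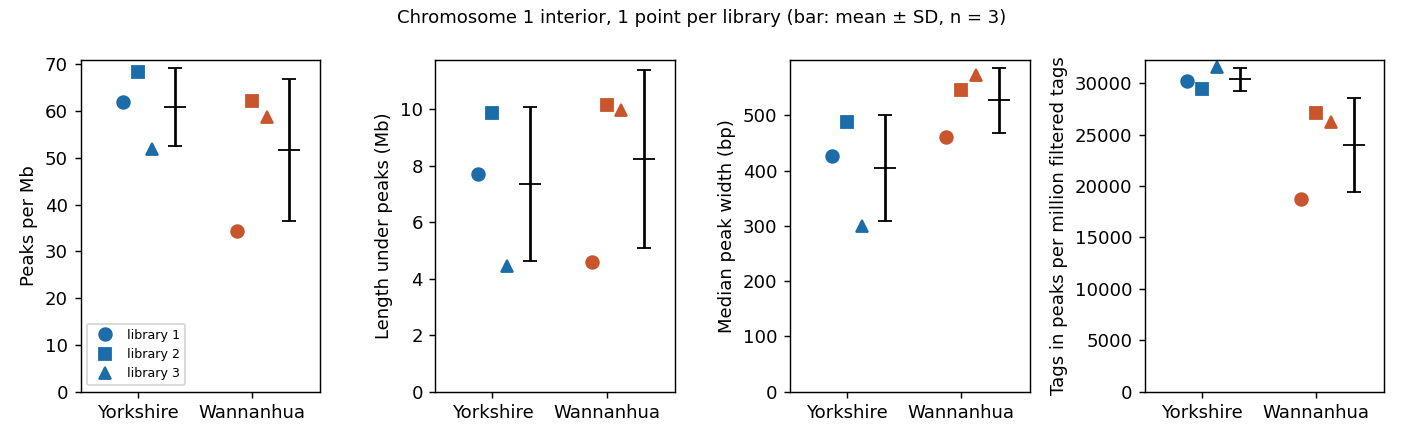
Peaks per Mb, length under peaks, median peak width and tags in peaks per 1000000 filtered tags for the chromosome 1 interior, with 1 point per library and the mean ± SD of 3 libraries beside them. The breeds overlap in the first 3 panels, and in the last the lowest Yorkshire point (29398.4 tags) lies above the highest Wannanhua point (27087.0 tags).

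The share of tags that fell in interior peaks was higher in every Yorkshire library than in every Wannanhua library. Yorkshire 1, 2 and 3 had 30188.9, 29398.4 and 31597.2 tags in interior peaks per 1000000 filtered tags, and Wannanhua 1, 2 and 3 had 18771.4, 27087.0 and 26224.7. The means were 30394.8 ± 1113.8 and 24027.7 ± 4572.5 (SD, n = 3 each), and the exact permutation p was 0.1, the smallest the design allows (0.4 after adjustment over the 6 measures). The difference of -6367.1 was -3739.0 without Wannanhua 1. As a percentage of the tags in peaks on the 5 chromosomes, a quantity added after the data had been seen, the interior held 28, 24.6 and 28.6% in Yorkshire and 21.1, 22.8 and 23.1% in Wannanhua. The breeds did not overlap there either (27.1 ± 2.13% against 22.3 ± 1.06%, n = 3 each, exact permutation p = 0.1). The difference of -4.74 percentage points ranged from -6.69 to -3.99 when single libraries were left out, when equal numbers of top peaks were used and when peaks were held to a stricter score.

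The shift of tags was shared with other chromosomes. The interiors of chromosomes 10, 11, 12 and 13 together also held a smaller percentage in Wannanhua, 28.1 ± 1.00% against 31.8 ± 1.42%, and the 20 Mb end zones of chromosome 1 held a larger one, 10.7 ± 0.526% against 7.95 ± 0.913% (n = 3 each, exact permutation p = 0.1 for each). The percentages of 1 library sum to 100, so these differences are not independent of each other. Counted in peaks and not in tags, the interior of chromosome 1 held 31.4, 30.5 and 30.1% of the peaks in Yorkshire and 28.2, 30.3 and 30.3% in Wannanhua, which overlap (a difference of -1.09 percentage points, exact permutation p = 0.3). The breeds did not overlap in this share either with equal numbers of top peaks (-2.65 points) or at a score of at least 100 (-2.95 points), with an exact permutation p of 0.1 for each.

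Peaks were sparser in the interior of chromosome 1 than in the pooled interiors of the other chromosomes. In order of Yorkshire 1 to 3 and Wannanhua 1 to 3, the interior of chromosome 1 had 62.0, 68.4, 51.9, 34.3, 62.2 and 58.7 peaks per Mb, and the interiors of chromosomes 10 to 13 together had 66.4, 74.4, 56.8, 39.0, 67.5 and 63.7. Chromosome 1 was the lower in 6 of 6 libraries, by a mean factor of 0.915 (log2 -0.13 ± 0.03, SD, n = 6, two-sided exact sign-flip permutation test, p = 0.031, the smallest that 6 libraries allow). At a score of at least 100 the log2 ratio was -0.04, with p = 0.0625 in the same exact test. The pooled value hides unlike chromosomes. The interior of chromosome 1 was sparser than those of chromosome 10 (53.1 to 100.5 peaks per Mb over the 6 libraries) and chromosome 12 (61.0 to 110.5) in 6 of 6 libraries. It was denser than that of chromosome 11 (31.9 to 64.5) in 6 of 6 and than that of chromosome 13 (34.9 to 66.5) in 5 of 6.

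Within the interior the density of peaks varied several-fold, and the same stretches were dense or poor in all 6 libraries. The interior was cut into 55 whole windows of 5 Mb. Across these windows the counts of any pair of libraries had a Spearman rho between 0.939 and 0.990 over the 15 pairs, given as a description, since windows of 1 chromosome share base composition and mappability. In each library the densest window had 3.33 to 4.59 times as many peaks as the poorest. The density of a window said little of the next, with a correlation between adjacent windows of -0.045 to 0.065 depending on the library.

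A set of 6 windows had at least 1.25 times the mean of the library in all 6 libraries. They lie at 30 to 35, 115 to 120, 140 to 145, 180 to 185, 265 to 270 and 280 to 285 Mb. They make up 10.9% of the interior and hold 16.8% of its regions, at 144.7 regions per Mb. A set of 7 windows had at most 0.75 times the mean in all 6 libraries, at 70 to 75, 135 to 140, 190 to 195, 195 to 200, 220 to 225, 235 to 240 and 270 to 275 Mb. They make up 12.7% of the interior and hold 7.27% of its regions, at 53.7 regions per Mb. In 2 places a dense and a poor window adjoin, at 135 to 145 Mb and at 265 to 275 Mb, and only the pair from 190 to 200 Mb forms a stretch longer than 1 window.

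The window from 140 to 145 Mb was the densest by its mean share of interior peaks. It held 468, 559 and 423 peaks in Yorkshire 1, 2 and 3 and 303, 503 and 463 in Wannanhua 1, 2 and 3, which is 1.51 to 1.77 times the library means. The breeds overlapped (483.3 ± 69.3 against 423.0 ± 105.8 peaks, n = 3 each). Of its 726 merged regions, 197 were called in all 6 libraries.

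The window from 280 to 285 Mb held more merged regions, 837, of which 142 were called in all 6 libraries and 30.3% in a single one. Its peaks numbered 496, 547 and 411 in Yorkshire and 261, 513 and 463 in Wannanhua. It also held the densest 1 Mb of the interior by the mean over the 6 libraries, from 284 to 285 Mb, with 127, 143, 108, 85, 149 and 127 peaks in the libraries in order. The megabase before it had more peaks in each Yorkshire library (131, 144 and 116) and fewer in each Wannanhua library (69, 137 and 117). The windows from 180 to 185 Mb (386 to 532 peaks in Yorkshire, 262 to 494 in Wannanhua), 265 to 270 Mb (376 to 529 and 265 to 470) and 80 to 85 Mb (323 to 474 and 257 to 443) complete the 5 densest. The last of these fell just short of the dense set, with 1.24 times the mean in its lowest library.

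The window from 235 to 240 Mb was the poorest. It held 149, 161 and 123 peaks in Yorkshire and 66, 129 and 137 in Wannanhua, or 0.385 to 0.480 times the library means (144.3 ± 19.4 against 110.7 ± 38.9 peaks, n = 3 each, overlapping). Only 205 merged regions lay in it, and its megabase from 238 to 239 Mb held 22, 21, 14, 10, 16 and 15 peaks. The next poorest were 270 to 275 Mb (171 to 209 peaks in Yorkshire, 94 to 182 in Wannanhua), 190 to 195 Mb (178 to 210 and 101 to 189), 135 to 140 Mb (174 to 223 and 93 to 190) and 220 to 225 Mb (168 to 200 and 117 to 183).

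**Figure D2:**
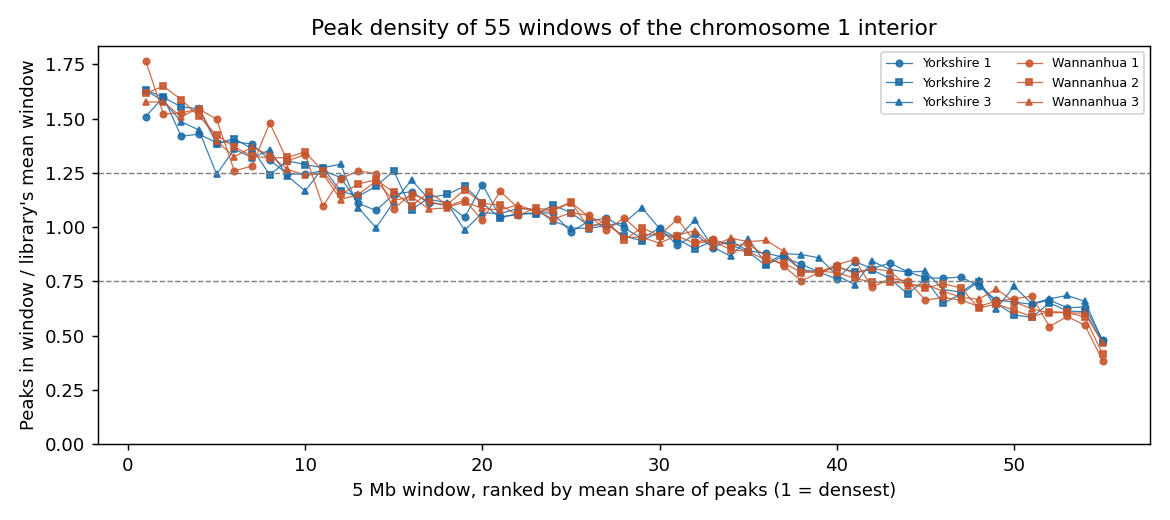
Peak count of each of 55 windows of 5 Mb in the chromosome 1 interior, divided by the mean window of the same library, with windows ranked from densest to poorest and 1 line per library. Dashed lines mark 1.25 and 0.75 times the mean, and the 6 lines run close together from about 1.5 to 1.8 at the left to about 0.4 to 0.5 at the right.

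Peaks of the dense and poor windows also differed in shape, in a comparison added after the data had been seen. The windows had been chosen by the peak counts of these same libraries. The p-values of this comparison cover the scatter of libraries and not the choice of windows. The median width in dense windows was 440, 505, 302, 472, 569 and 598 bp in the libraries in order, and in poor windows 413, 467, 297, 451, 521.5 and 545 bp. Dense windows had the wider peaks in 6 of 6 libraries, by a mean factor of 1.07 (exact sign-flip permutation p = 0.031, adjusted p = 0.0469 over 3 measures). Fold enrichment, the ratio of tags in a peak to the local background as the authors' caller gives it, went the other way.

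Its median was 14.7, 12.1, 22.9, 15.6, 11.01 and 11.5 in dense windows and 18.9, 15.1, 28.4, 17.6, 13.4 and 14.0 in poor ones. It was lower in dense windows in 6 of 6 libraries, by a mean factor of 0.818 (exact sign-flip permutation p = 0.031, adjusted p = 0.0469). The local background of each fold comes from the same library within 10000 bp, so a fold is measured against neighbouring peaks where these are close. The packing of peaks thus enters the fold itself, and its part in the difference was not tested. The median tags per peak were higher in dense windows in 5 of 6 libraries and equal in Yorkshire 3 (exact sign-flip permutation p = 0.0625). Regions in poor windows were more often shared, with 29.2% of them called in all 6 libraries against 22.1% in dense windows. That difference was not tested.

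The typical distance from one merged region to the next was a few kb. The median was 5373.5 bp, with quartiles of 2249.8 and 11469.8 bp, and the regions themselves had a median width of 582 bp. Stretches of at least 50 kb with no peak in any library numbered 861 and added up to 61.5 Mb of the interior, and 74 of them were at least 100 kb long. The longest ran from 222677584 to 222879041 (201458 bp), inside the poor window from 220 to 225 Mb. The next 3 ran from 294916579 to 295093276, from 123671241 to 123846491 and from 213523394 to 213697939. The fifth, from 253883068 to 254042097, ends where one of the most enriched regions of the interior begins. An empty stretch is one without a called peak at this depth, and assembly gaps or repeats that cannot be mapped were not examined, as the genome build is not given in the sources used here.

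Regions called in a single library and regions called in all 6 were each more frequent than those at any number between. Of the 25825 regions, 6212 (24.1%) had a peak in 1 library and 6362 (24.6%) in all 6, with 10.9 to 16.0% at each other number. Over all 5 chromosomes 25.5% were called in 1 library and 21.6% in all 6. The median width rose with the number of libraries, from 406 bp in 1 library to 721 bp in 6, as a merged region can only widen with each peak added. Yorkshire 2 had 1881 regions to itself, the most of any library, and Wannanhua 1 had 184, the fewest.

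The share of a library's regions found in another library varied with the number of peaks of the other. Of the regions of Wannanhua 1, 90.7% were also called in Wannanhua 2, 90.0% in Yorkshire 2 and 79.0% in the shallow Yorkshire 3. In the other direction 45.2% of the regions of Yorkshire 2 were called in Wannanhua 1. The number of peaks was not the whole pattern, as Wannanhua 2 and Yorkshire 1 had similar numbers. Of the regions of Wannanhua 3, 81.2% were called in Wannanhua 2 and 76.8% in Yorkshire 1. Of those of Yorkshire 2, 74.9% were called in Wannanhua 2 and 73.9% in Yorkshire 1. The depth after filtering was close in some pairs across breeds, although these pairs still differed in fragment length. Yorkshire 2 had more peaks than Wannanhua 3 in 55 of 55 windows and more than the deeper Wannanhua 2 in 54 of 55. Yorkshire 3 had more than Wannanhua 1 in 55 of 55, but those libraries also differed in total tags (21579333 against 10455414) and in the share removed as duplicates (0.69 against 0.29). Against the much deeper Wannanhua 2, Yorkshire 3 had more peaks in 1 of 55 windows. Yorkshire 1, also shallower than Wannanhua 2, had more peaks than it in 29 windows and fewer in 22. Windows of a pair are not replicates, and the window profiles of the libraries were alike. These window counts therefore largely restate the total peaks of each library.

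**Figure D3:**
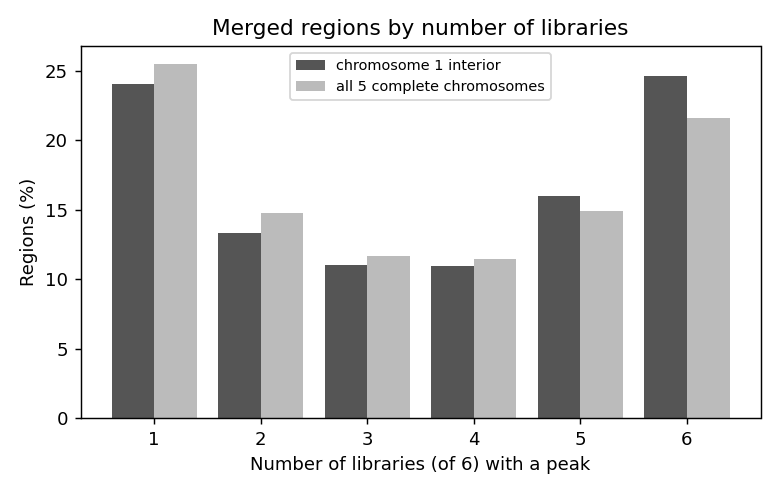
Percentage of merged regions by the number of libraries with a peak, for the chromosome 1 interior (dark bars) and for all 5 complete chromosomes (light bars). Both are highest at 1 and at 6 libraries, and the interior has 24.6% of its regions in all 6 against 21.6% over all chromosomes.

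The 6 most enriched regions common to all libraries, ranked by the fold of their lowest library, were 388 to 883 bp wide and lay in different windows. The strongest, from 268155758 to 268156640, had a fold of 55.2, 44.6 and 89.2 in Yorkshire and 47.6, 38.9 and 40.4 in Wannanhua. Its tags numbered 97, 100, 100, 94, 114 and 107, nearly the same in each library although filtered depth differed by a factor of 2.54. The region from 65761890 to 65762277 was alike, with 57, 56, 57, 51, 57 and 56 tags and folds of 32.6 to 81.6. Per the file headers the caller kept at most 1 tag per position, and its part in these level counts was not tested.

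Others among the 6 followed depth more closely. The region from 139272895 to 139273548 had 30, 49, 12, 25, 51 and 68 tags and a fold of 37.8 to 47.7, and that from 215974611 to 215975490 had 39, 49, 28, 21, 56 and 62 tags and a fold of 35.8 to 51.5. The region from 254042098 to 254042862 had 55, 82, 33, 36, 88 and 65 tags. The region from 99183329 to 99183949 had 65, 86, 59, 81, 59 and 96, with Wannanhua 2, the deepest library, among the lowest. In all 6 of these regions the tags of the breeds overlapped.

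The widest regions common to all libraries were of unlike kinds. The region from 278506310 to 278514573 spans 8264 bp after merging. It was called over 2681, 1818 and 1797 bp in Yorkshire against 3321, 5946 and 6647 bp in Wannanhua, longer in every Wannanhua library, and its tags numbered 177, 215, 97, 206, 653 and 518. Its tags did not pass the edgeR test described below (log2 1.28, adjusted p = 0.158). The region from 147287701 to 147291595 had 258, 338 and 179 tags in Yorkshire against 51, 131 and 156 in Wannanhua, unscaled, and was called over 3205, 3798 and 1881 bp against 1826, 1962 and 2022 bp, which overlap. It too did not pass (log2 -1.41, edgeR, adjusted p = 0.109).

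The region from 100577985 to 100581364 stood apart by its number of tags, 3902, 4383, 3625, 3404, 3957 and 3850. That is 1091.7 to 1412.0 tags per kb of called peak, where interior peaks as a whole had 30.3 to 47.7, and its fold was only 4.35 to 5.34. Without a control library such a pile of tags cannot be told apart from a sequence present in many copies. The fourth of the widest, from 264165444 to 264168804, had 93, 205, 61, 146, 314 and 260 tags.

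The breeds divided their interior peaks over the windows in nearly the same way. Taking the percentage of a library's interior peaks in each window, all Wannanhua values lay above all Yorkshire values in 6 of 55 windows (10.9%) and all Yorkshire values above all Wannanhua values in 10 of 55 (18.2%). Taken as a percentage of the library's peaks on the 5 chromosomes instead, the counts were 2 (3.64%) and 12 (21.8%). On that second scale the shares over all 150 whole windows of the 5 chromosomes were 6.67% and 12%. The interior thus had a smaller share of windows higher in Wannanhua and a larger share higher in Yorkshire. No share over all windows is given for the first scale, so its counts are a description. Within interior peaks, the counts with windows of 10 Mb, of which there are fewer, were 1 and 3. Without Yorkshire 2 the count higher in Wannanhua was 12, but leaving out a library can only keep or raise such a count. The largest log2 differences among them were 0.17 and -0.21.

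Among the windows higher in Yorkshire, 50 to 55 Mb held 1.32, 1.36 and 1.37% of interior peaks in Yorkshire and 1.16, 1.14 and 1.21% in Wannanhua. Poor windows were among them. The window from 135 to 140 Mb held 1.21, 1.18 and 1.22% against 0.985, 1.11 and 1.10%, and the poorest window, 235 to 240 Mb, held 0.873, 0.855 and 0.861% against 0.699, 0.754 and 0.848%. Of the 10 windows higher in Yorkshire 4 belong to the poor set, and of the 6 higher in Wannanhua none does.

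Among the windows higher in Wannanhua, 160 to 165 Mb held 1.96, 2.16 and 1.81% in Yorkshire and 2.27, 2.21 and 2.20% in Wannanhua. The window from 290 to 295 Mb, which adjoins the end zone, held 2.02, 2.08 and 1.98% against 2.29, 2.18 and 2.09%. Its neighbour from 285 to 290 Mb held 1.78, 1.94 and 1.81% against 1.94, 2.03 and 2.02%, with Yorkshire 2 and Wannanhua 1 all but equal. In each of these 3 windows the closest libraries of the breeds differ by less than the range within Yorkshire.

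**Figure D4:**
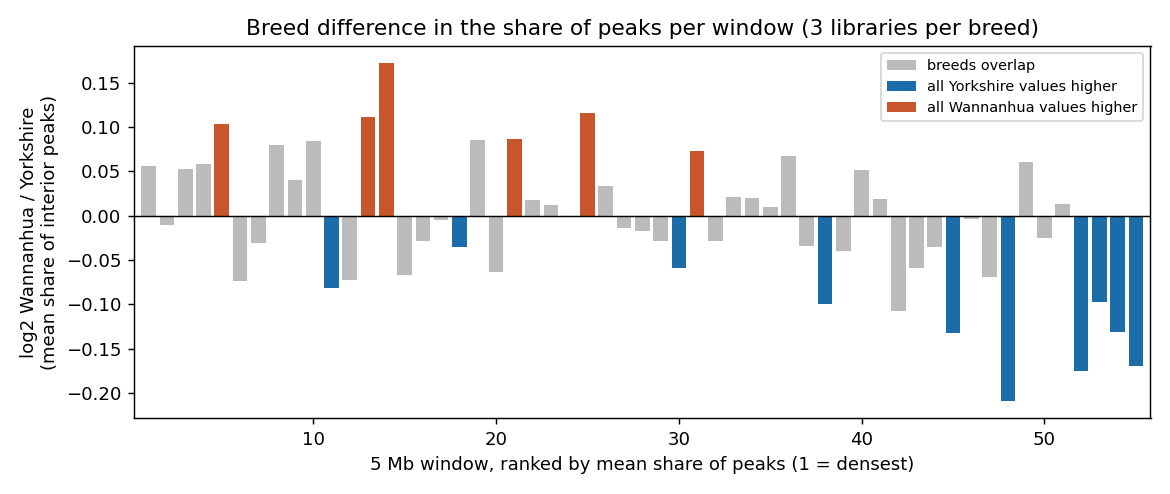
Log2 ratio of the mean percentage of interior peaks, Wannanhua over Yorkshire, for 55 windows ranked from densest to poorest. Coloured bars are windows whose 3 libraries of one breed all lie above those of the other, 6 higher in Wannanhua and 10 higher in Yorkshire, and all bars lie between -0.21 and 0.17. No share over the windows of all chromosomes is given on this scale.

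Few regions had a peak in each of the 3 libraries of a breed and no peak in the other breed. Yorkshire alone had 348 such regions (1.35% of the interior, against 1.47% over all 5 chromosomes) and Wannanhua alone 107 (0.414%, against 0.798%). The Yorkshire share was thus near that of all chromosomes. The Wannanhua share was below it, as it also was in the interiors of chromosomes 10 to 13 (0.522%). The end zones of chromosome 1 had 1.86% and 1.56%. The counts rose whenever a library was left out, as fewer libraries then had to meet the rule. Without Yorkshire 3 the Yorkshire count was 923 and without Wannanhua 2 it was 917. The Wannanhua count was 521 without Wannanhua 1, 187 with equal numbers of top peaks and 70 at a score of at least 100.

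Both kinds were scattered, and they were weaker than shared regions. Yorkshire-only regions lay in all 55 windows, with 18 at 35 to 40 Mb and 16 at 20 to 25 Mb, and Wannanhua-only regions in 41, with 7 at 245 to 250 Mb. The median tags of Yorkshire-only regions were 14, 17 and 9 in Yorkshire 1, 2 and 3, where regions called in all 6 libraries had 23, 29 and 17. Wannanhua-only regions had 11, 20 and 21 in Wannanhua 1, 2 and 3, against 13, 31 and 27. The nearest peak of the other breed was at a median distance of 2979.5 bp from a Yorkshire-only and 2172 bp from a Wannanhua-only region, and within 1 kb for 74 and 27 of them. At the sites within 1 kb the breeds differ in where a peak was called and not in whether the neighbourhood held one.

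The Yorkshire-only region with the best score in its weakest library, from 157998480 to 158004811, had 910, 2736 and 2574 tags at a fold of 3.55 to 4.76, and a Wannanhua peak began 249 bp away. Its neighbour, from 158005061 to 158011407, was called in 3 libraries with many tags (Yorkshire 3, 2723; Wannanhua 1, 3067; Wannanhua 2, 4680) and had no peak in the others. Yorkshire 3 thus had a peak in both of these adjoining regions and Wannanhua 3 in neither. The first region had 285.4, 452.1 and 430.9 tags per kb of called peak in Yorkshire 1, 2 and 3. Interior peaks as a whole had 30.3 to 47.7 per library. Here too a sequence present in many copies cannot be told apart without a control library.

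The other named Yorkshire-only regions were of usual size. The region from 196109671 to 196109984 had 30, 23 and 23 tags at a fold of 26.3, 21.6 and 55.1, and lies in a poor window. The region from 122737182 to 122737711 had 23, 38 and 19 tags, with the nearest Wannanhua peak 6166 bp away. The regions from 181069654 to 181070130, from 114599052 to 114599562 and from 184327403 to 184328381 had 25, 34 and 21, 18, 24 and 16, and 29, 43 and 18 tags.

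The Wannanhua-only region from 164267490 to 164268085 was the best of its kind, with 15, 46 and 46 tags in Wannanhua 1, 2 and 3 at a fold of 29.4, 34.6 and 35.7. No Yorkshire peak lay within 13207 bp of it. A pair of others lie in the same window from 160 to 165 Mb, the region from 164052748 to 164053224 with 17, 31 and 31 tags and that from 161484887 to 161486069 with 21, 44 and 45. That window also held 6 Yorkshire-only regions, as many as Wannanhua-only ones.

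The region from 284363493 to 284364580 had 41, 76 and 72 tags at a fold of 4.97 to 7.58, with a Yorkshire peak 945 bp away. The regions from 58247072 to 58247495 and from 256320007 to 256320725 had 13, 18 and 22 and 14, 26 and 30 tags. The nearest Yorkshire peaks lay 3966 and 1867 bp away.

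Tags were compared between breeds in the 6362 interior regions called in all 6 libraries, and few passed. The tags of a library were those of its own peaks in a region, so libraries were counted over stretches of different length. With edgeR's quasi-likelihood test and Benjamini-Hochberg adjustment over 19161 regions on 5 chromosomes, 14 interior regions (0.220%) were higher in Wannanhua and 8 (0.126%) in Yorkshire at an adjusted p of 0.05. Over all regions tested the shares were 0.543% and 0.151%. At an unadjusted p of 0.05, 288 interior regions were higher in Wannanhua and 442 in Yorkshire. Together these were 11.5% of the interior regions, against 16.0% over all regions tested, for which no split by direction is given. The median log2 ratio of Wannanhua to Yorkshire over the interior regions was -0.10, against -0.04 over all regions, and 99.3% of interior regions lay within 1 log2 unit of 0. No count can lie below the smallest interior peak of its library. That peak had 9, 11 and 7 tags in Yorkshire 1, 2 and 3 and 9, 13 and 12 in Wannanhua 1, 2 and 3.

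The scaling and single libraries decide these counts. Scaled by library size alone, 7 regions were higher in Wannanhua and 30 in Yorkshire, and the median log2 ratio was -0.23. Without Yorkshire 1 no region passed in either direction, with 219 and 289 at an unadjusted p of 0.05, and without Wannanhua 2 none passed either, with 260 and 346. Without Yorkshire 2, 157 and 120 passed, among them 13 of the 14 and all 8. Without Wannanhua 3 the counts were 1 and 0, and without Wannanhua 1 they were 6 and 1, while without Yorkshire 3 they were 3 and 6.

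Regions with more tags in Wannanhua were called over a longer stretch there. Tags were counted over the called length, so a longer call adds to the count and these measures are not independent. The mean called length was longer in Wannanhua in 14 of 14, by a median factor of 2.06, where the median over all 6362 was 1.24. A longer call in Wannanhua was thus usual in the interior, and the share of all regions with one is not given. Per kb of called peak their tags were at a median of 1.12 times the Yorkshire level, and 9 of 14 lay above 1. Over all 6362 regions the same median was 0.723, and 662 lay above 1. Regions with more tags in Yorkshire were called over about the same length, with a median factor of 0.988, and per kb they had a median of 0.443 times as many tags in Wannanhua. With the called length as an offset in the edgeR fit, 0 regions were higher in Wannanhua (6 at an unadjusted p of 0.05) and 2 in Yorkshire, and the median log2 ratio of all interior regions was -0.43. With fragment length as a covariate none passed in either direction, with 135 and 225 at an unadjusted p of 0.05. Fragment length did not overlap between the breeds, so a fit of 6 libraries can hardly separate it from breed. No conclusion is drawn from that loss of calls.

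**Figure D5:**
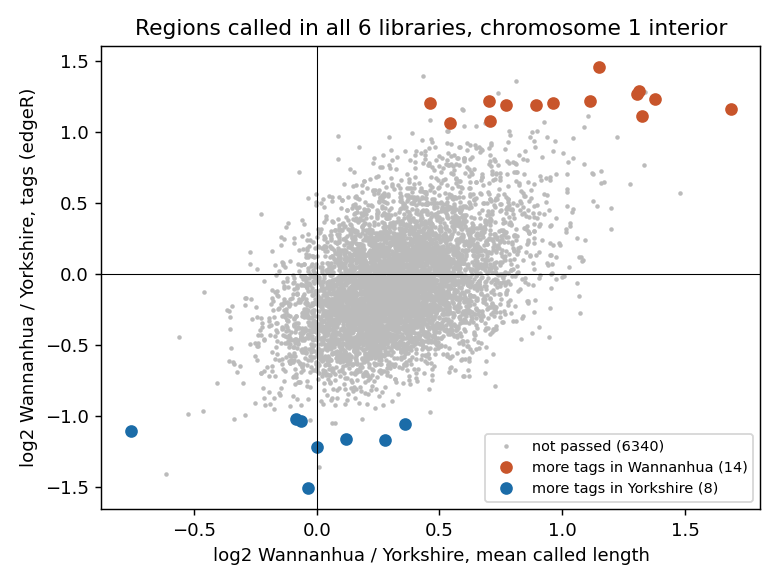
Log2 ratio of tags (edgeR) against log2 ratio of mean called length, Wannanhua over Yorkshire, for 6362 interior regions called in all 6 libraries. The 14 regions with more tags in Wannanhua all lie right of 0 on the length axis, while the 8 with more tags in Yorkshire lie on both sides of it. Most of the 6362 also lie right of 0, with a median called length ratio of 1.24. Tags were counted over the called length, so the axes are not independent.

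Among the regions higher in Wannanhua, that from 241038113 to 241039193 had 18, 23 and 8 tags in Yorkshire and 22, 62 and 50 in Wannanhua. CPM is the count per 1000000 tags in the shared regions, with the total of each library adjusted by edgeR's TMM factors. On that scale the region had 27.4 ± 6.84 against 67.0 ± 7.49 CPM (n = 3 each), without overlap. The log2 ratio was 1.27 with a standard error of 0.26 (edgeR, adjusted p = 0.0212). Its called length rose alongside, from a mean of 389.7 to 963.7 bp. Per kb the ratio was 0.989, where the median over all interior regions was 0.723. The region from 74903512 to 74904611 had 19, 15 and 7 against 12, 72 and 48 tags and a log2 ratio of 1.46 (edgeR, adjusted p = 0.0212), but its CPM overlapped, with Wannanhua 1 at 32.5 and Yorkshire 1 at 33.8. Its 7 tags in Yorkshire 3 equal the smallest interior peak of that library.

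The region from 267705641 to 267706326 had a mean called length of 331 against 456 bp, although single libraries overlapped (580 bp in Yorkshire 2, 326 bp in Wannanhua 1). It had 9, 17 and 10 tags in Yorkshire and 20, 39 and 35 in Wannanhua, or 21.0 ± 4.40 against 49.3 ± 4.24 CPM, and 1.38 times as many per kb in Wannanhua. Its log2 ratio was 1.20 (edgeR, adjusted p = 0.0234). At the other extreme, the region from 29375723 to 29377185 had 36.4 ± 9.08 against 79.7 ± 3.35 CPM (log2 1.16, edgeR, adjusted p = 0.0413), was called over 389 against 1252 bp, and per kb had 0.656 times as many tags in Wannanhua.

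The region from 283041925 to 283043196, in the dense window from 280 to 285 Mb, had 24, 33 and 11 tags against 33, 74 and 68 (37.8 ± 9.50 against 89.8 ± 0.985 CPM, edgeR, adjusted p = 0.0413). The regions from 142766468 to 142767741, from 182910884 to 182912770 and from 118346107 to 118347436 had log2 ratios of 1.22, 1.29 and 1.11, with edgeR adjusted p-values of 0.0310, 0.0387 and 0.0391. In each of these 8 the mean called length was longer in Wannanhua, as it was in most interior regions.

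Among the regions higher in Yorkshire, that from 294488263 to 294488974, near the upper edge of the interior, differed the most. It had 66, 66 and 55 tags in Yorkshire and 15, 27 and 34 in Wannanhua, or 113.1 ± 23.6 against 39.5 ± 6.56 CPM, without overlap. The log2 ratio was -1.51 with a standard error of 0.31 (edgeR, adjusted p = 0.0212). The called length was alike, 508 against 495 bp, and per kb it had 0.342 times as many tags in Wannanhua.

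The region from 239369920 to 239370510 lies in the poorest window. It had 31, 42 and 21 tags in Yorkshire and 9, 19 and 19 in Wannanhua (54.0 ± 2.47 against 24.2 ± 1.28 CPM, log2 -1.17, edgeR, adjusted p = 0.0217). The region from 167006222 to 167006876 had 28, 46 and 27 against 9, 22 and 20 tags (58.9 ± 8.22 against 25.9 ± 1.28 CPM, log2 -1.16, edgeR, adjusted p = 0.0238). The region from 216408297 to 216408969 had 25, 39 and 19 against 12, 15 and 13 tags (log2 -1.21, edgeR, adjusted p = 0.0239). In each of these 3 the CPM of the breeds did not overlap. The 9 tags of Wannanhua 1 in the regions starting at 239369920 and 167006222 equal the smallest interior peak of that library.

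The remaining 4 had log2 ratios of -1.10 to -1.02. They span 40931028 to 40932189, 177481072 to 177481857, 218157061 to 218157742 and 157102112 to 157102976, with edgeR adjusted p-values of 0.0300, 0.0407, 0.0431 and 0.0484. The first of them was called over a longer stretch in Yorkshire, 854.3 against 506.3 bp, and per kb it had 0.775 times as many tags in Wannanhua.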

How the data were processed

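The authors deposited 1 peak list per library. MACS was run per library without a control (version 1.4.2 in 5 of 6 headers), at p 1e-05, band width 300 and model fold 10 to 30, per the file headers. Aligner and genome build: not given in the sources used here, so no peak was assigned to a gene. A deposited peak comes with a count of tags (not normalized), a fold enrichment (the caller's ratio to local background) and a score (a multiple of the negative log10 of p). Fold and score are the authors' values and served to describe, rank or filter peaks. Each list stops after 65516 peaks, and chromosomes 1, 10, 11, 12 and 13 are complete in all 6.

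In regions called in all 6 libraries, the tags of each library's own peaks were summed. These sums were compared by edgeR 4.0.16 under R 4.3.3 (quasi-likelihood, TMM, filterByExpr, Benjamini-Hochberg 0.05). DESeq2 1.42.0 was an alternative. Exact two-sided tests, windows and merging used Python 3.11.15, numpy 2.4.6 and pandas 2.3.3, and plots matplotlib 3.10.9. Windows named are the 5 densest, the 5 poorest and the 3 per direction with the largest breed difference. Gaps named are the 5 longest. Regions named are the 6 most enriched and 4 widest in all libraries, the 6 per breed with the best lowest score, and up to 8 per direction with the lowest adjusted p. The members, lists and rules were chosen with earlier results of these data known. Deviations of same-numbered libraries were hardly correlated, and replicate numbers were used as pairs only in an alternative.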

Additional observations from a re-analysis of the deposited data

How the results depend on the processing

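Of 181 values recomputed for named regions in the tag test, 82 kept their direction and side of the threshold, 96 lost the threshold and 3 reversed. The breed tests of library measures cannot pass 0.05 with 3 against 3, so only their direction could change, and it did in 2 of 56 values. Causes were not tested unless stated. The difference in length under peaks (0.889 Mb) ranged from -0.554 (without Yorkshire 3) to 2.71 Mb when single libraries were left out, and was -0.0639 without Wannanhua 2. The log2 ratio of interior to other interiors ranged from -0.134 to -0.116 with 1 library left out, where 5 libraries cannot give p below 0.0625, and was -0.0413 at a score of at least 100. Windows higher in Wannanhua numbered 6 to 12 with 1 library left out and 1 with windows of 10 Mb, and those higher in Yorkshire numbered 3 with windows of 10 Mb. Leaving out a library can only keep or raise these window counts, and there are fewer windows of 10 Mb. Regions in Yorkshire only ranged from 405 to 923 and in Wannanhua only from 138 to 521 when single libraries were left out, as fewer libraries then had to meet the rule. Wannanhua-only regions were 187 with equal numbers of top peaks and 70 at a score of at least 100. Regions with more tags in Wannanhua ranged from 0 to 157 and in Yorkshire from 0 to 120 with 1 library left out. In the order Wannanhua then Yorkshire they numbered 7 and 30 with library size alone, 0 and 2 with called length as offset, 0 and 0 with fragment length as covariate, 9 and 5 at a score of at least 100, and 23 and 4 by DESeq2, which gave 5581 regions no adjusted p and shared 3 and 1 with the edgeR calls. With the replicate block they numbered 24 and 15, including all 14 and 8. The same-numbered pairs had correlations of -0.0097, 0.0347 and -0.0484, within the range of the other pairs (-0.0794 to 0.0847). That gives no sign of pairing, but values near 0 from low counts cannot exclude it. The called-length offset reversed the log2 ratio of 3 regions, those starting at 241038113 (-0.0214), 118346107 (-0.2723) and 29375723 (-0.5293). Depth limits all calls, since a region without a peak is one below the caller's cutoff in that library.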

Other observations

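Some regions kept nearly the same number of tags in every library, in a search added after the data had been seen. Of the 26 interior regions with at least 40 tags in each library, 4 had a highest count within 1.3 times the lowest, while filtered depth differed by a factor of 2.54 and the median ratio of the 26 was 2.42. Beside those described above, the region from 23920217 to 23921220 had 64, 67, 60, 56, 72 and 65 tags in Yorkshire 1 to 3 and Wannanhua 1 to 3. Its called length was 540, 970, 178, 336, 703 and 645 bp, so equal counts came from unequal stretches.

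Regions of a single breed sometimes lay close together, also a search added after the data had been seen. With at most 100 kb between neighbours, 9 runs of 3 or more Yorkshire-only regions and 1 run of Wannanhua-only regions were found. They came from unequal numbers, 348 Yorkshire-only and 107 Wannanhua-only regions, and runs on the other chromosomes are not given. In the run from 23340272 to 23472321, 5 of 28 regions were called in Yorkshire only. In the run from 116606322 to 116626935, 3 of 5 regions were, within 20614 bp. In the run from 39912436 to 40026011, 3 of 6 were. The Wannanhua run, from 284845763 to 285074408, had 4 among 57 regions, with 1 Yorkshire-only region inside it. No test was made of these runs.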
